A study of Mus musculus with 3 samples.

Results

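Genes of the 2 receptors of tumor necrosis factor and of components of NF-kappaB signaling were examined in RNA sequencing of LSK cells from *Calr* frameshift knock-in mice. The 10 genes were the rows of the deposited table of 36172 genes that bear the symbols *Tnfrsf1a*, *Tnfrsf1b*, *Traf2*, *Traf6*, *Ikbkb*, *Nfkb1*, *Nfkb2*, *Rel*, *Rela* and *Relb*. LSK cells (lineage-negative, Sca1-positive, c-Kit-positive) are a sorted part of the bone marrow in which stem cells and early progenitors of blood are enriched. There were 3 libraries, from *Calr* del10/WT, *Calr* ins2/WT and *Calr* WT/WT mice on a C57BL/6 background, called del10, ins2 and WT here. Each was a single aliquot of cells from 4 male mice aged 3 months. Both frameshifts were made with CRISPR-Cas9 in exon 9 of *Calr*, which encodes the endoplasmic reticulum chaperone calreticulin, and are carried in the germline on 1 allele. Since each genotype has a single library, differences cannot be checked against replicates, no test was made and no p-value is given.

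As background, tumor necrosis factor binds TNFR1, present on most cells, and TNFR2, found mainly on hematopoietic and endothelial cells. Both recruit TRAF adaptors, and the kinase IKK-beta then marks the IkappaB inhibitors for destruction, which frees NF-kappaB dimers to enter the nucleus. In the canonical arm the dimers are built from p50 and RelA or c-Rel, while in the non-canonical arm, driven by receptors such as CD40 and the receptor of BAFF, they are built from p52 and RelB. In bone marrow, NF-kappaB signaling is known for emergency production of myeloid cells and for the survival and maturation of B cells.

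Before the genes are described, the libraries need to be set apart. The gene counts summed to 11111698 reads in del10, 10967622 in ins2 and 9823095 in WT, with reads on 13066, 12796 and 11037 genes. Levels are given as normalized counts, the authors' estimated read counts scaled between libraries by the trimmed mean of M-values (TMM). *Calr* itself had 7300 normalized counts in del10, 4679 in ins2 and 3800 in WT, a level that does not check the genotype since the frameshifts alter the coding sequence only. On *Cd34* and *Kit* the WT library went against the LSK label, with *Cd34* listed at 0 and *Kit* at 286 normalized counts, against 1664 and 4177 in del10 and 727 and 3082 in ins2. *Ly6a*, which encodes Sca-1, went against the label in the 3 libraries, being low at 51.9 in del10, 120 in ins2 and 145 in WT. Of 12 LSK marker genes, 1 was at 0 in del10, 2 in ins2 and 5 in WT (among them *Cd34* and *Procr*). Their summed normalized count was 16335, 12874 and 2041. Of the 6 that passed the filter used below, 5 were over 2-fold higher in each knock-in library. Over all genes that passed it, 15.3% were higher in del10 and 15.7% in ins2. Of the 6, 2 lay under the filter in WT, 1 of them at 0, so the filter favors genes high in the knock-in libraries. The sum of 14 B-lineage genes was 15243 in del10, 16865 in ins2 and 64411 in WT, with none of them at 0, and that of 12 basophil and mast cell genes was 36549, 26799 and 2306. The basophil and mast cell sum was thus above the LSK marker sum in each library, the knock-in ones included. Sums for the other lists lay closer together. They were 7040 in del10, 14955 in ins2 and 9543 in WT for T and NK cells, 3234, 6426 and 2531 for monocytes and macrophages, and 4499, 2375 and 1841 for neutrophils. For erythroid cells they were 8739, 5617 and 10582, for megakaryocytes 5130, 3346 and 1805, and for stromal and endothelial cells 4560, 6806 and 11022. In WT the commonest low read count of a gene was 61, against 16 in del10 and 21 in ins2, and these values were taken as the reads that come from 1 starting RNA fragment. By this estimate the WT values rest on fewer molecules than the reads show. Intervals below are 95% exact binomial (Clopper-Pearson) intervals of a ratio, once on reads and once on these estimated fragments, and cover counting error only.

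The sequence just upstream of a gene is where NF-kappaB can bind, and several of its subunits and inhibitors are known targets of the factor. The kappaB consensus was searched on both strands in the 250 bases before each RefSeq transcript start (build GRCm38.p6), and matches that overlapped were joined into 1 stretch. Of the 10 genes, 7 had a window and 2 of them (*Nfkb2* and *Rel*) held a match, against 8.23% of 27025 genes. Both receptor genes held none, which says only that those letters are not in that window. Up to 150 bases before the start are shown for both receptors, for *Rel* and for *Nfkbia*, the gene of the inhibitor IkappaB-alpha, and *Tnfaip3*, the gene of the inhibitor A20, both textbook targets. For *Nfkb2* 30 bases of the first of its 3 windows are shown, and for *Tnfaip3* the first window. The *Nfkb2* bases shown lie within an annotated *Nfkb2* exon and within an exon of a gene on the other strand. Letters run 5′ to 3′ on the gene's strand and capitals mark a match to the consensus.
*Tnfrsf1a* (chr6:125349573-125349722, plus strand): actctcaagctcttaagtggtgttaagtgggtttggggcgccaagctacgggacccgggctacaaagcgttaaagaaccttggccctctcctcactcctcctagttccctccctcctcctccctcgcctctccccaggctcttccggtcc
*Tnfrsf1b* (chr4:145246871-145247020, minus strand): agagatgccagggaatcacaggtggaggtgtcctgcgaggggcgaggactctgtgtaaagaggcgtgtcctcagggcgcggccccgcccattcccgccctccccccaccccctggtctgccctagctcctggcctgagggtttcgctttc
*Rel* (chr11:23770971-23771119, minus strand): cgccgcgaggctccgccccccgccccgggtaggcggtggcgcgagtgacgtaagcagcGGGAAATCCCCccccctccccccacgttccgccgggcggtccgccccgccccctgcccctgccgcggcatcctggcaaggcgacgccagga
*Nfkb2* (chr19:46304698-46304727, plus strand): GGGAATTCCCCccctcggggggccgaaagg
*Nfkbia* (chr12:55492648-55492797, minus strand): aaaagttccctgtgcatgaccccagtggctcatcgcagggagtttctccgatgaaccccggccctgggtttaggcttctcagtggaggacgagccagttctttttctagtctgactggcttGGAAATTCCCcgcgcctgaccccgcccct
*Tnfaip3* (chr10:19015411-19015560, minus strand): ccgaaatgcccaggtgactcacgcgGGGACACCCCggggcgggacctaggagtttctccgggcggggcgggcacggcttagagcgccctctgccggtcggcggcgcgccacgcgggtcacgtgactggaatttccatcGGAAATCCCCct

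The *Rel* match starts 92 bases before the transcript start, and the first *Nfkb2* match 39 bases before it, with a further match 11 bases before the start that the shown bases cut short. The single match of *Nfkbia* starts at 29 bases and those of *Tnfaip3* at 125 and 12 bases before the start. In the lists described below, a match was present in 3 of 6 IkappaB genes with a window, in 4 of 7 genes of the brakes and in 13 of 29 NF-kappaB target genes. It was present in 5 of 18 genes of the route from interleukin-1 and Toll-like receptors, 2 of 8 other IKK and upstream kinase genes, 3 of 16 other TNF family receptors, 2 of 14 adaptors and ligases, 1 of 10 TNF family ligands and 0 of 5 genes of the death arm. A match is a description of letters and not a shown binding site.

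The 10 genes did not differ from WT in one direction. Ratios were taken on log2(normalized count + 1), and a gene was counted as different when it passed 2-fold. Against WT, 2 of the 10 were over 2-fold higher in del10 (*Tnfrsf1a* and *Tnfrsf1b*), where 15.3% of the 7073 genes that averaged 215.3 normalized counts or more were, and 2 were over 2-fold lower (*Traf2* and *Relb*), where 10.2% were. In ins2 against WT, 2 were higher (the same receptors, 15.7% of the 7073) and 2 lower (*Traf6* and *Relb*, 10.7%). Between del10 and ins2 none of the 10 passed 2-fold in either direction, where 3.59% of the genes were higher and 4.03% lower. The median log2 ratio of the 10 was 0.04 in del10 and -0.06 in ins2 against WT, beside 0.04 in both over the 7073 genes. All 10 passed the filter on low values. *Tnfrsf1a* passed it through the knock-in libraries, since it lay under the filter in WT, and *Relb* through WT. Each of the 10 lay on the same side of WT in del10 as in ins2, which share that one WT library.

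**Figure D1:**
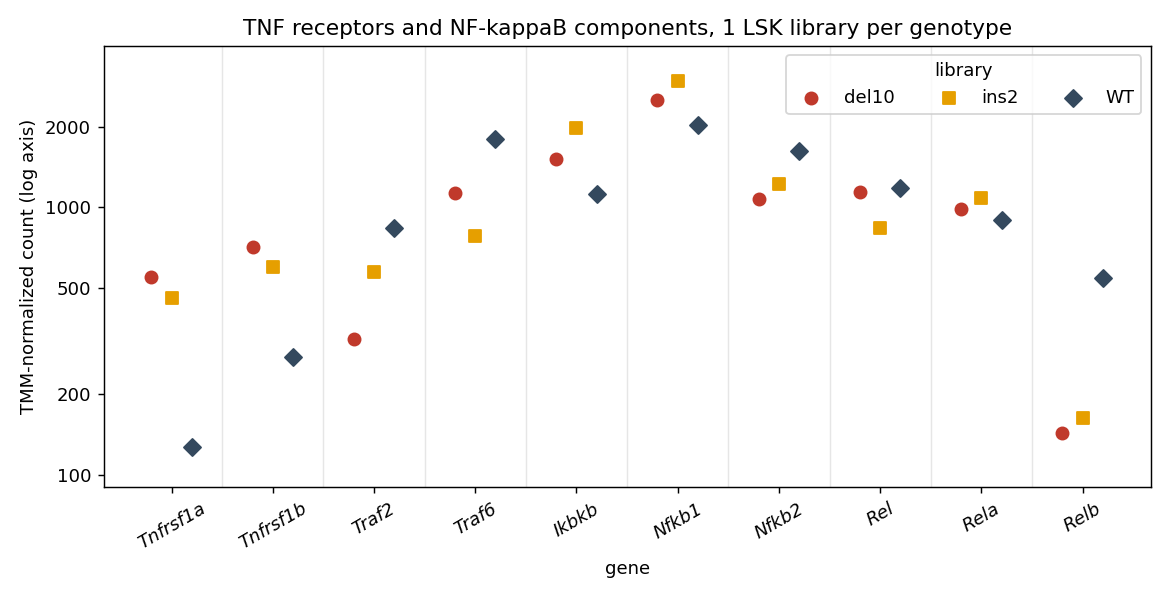
TMM-normalized counts (log axis) of the 10 genes in the del10, ins2 and WT libraries, 1 point per library and so no error bar. Both receptors lie lowest in WT, *Traf2*, *Traf6*, *Nfkb2*, *Rel* and *Relb* lie highest in WT, and the del10 and ins2 points lie near each other for most genes.

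The receptors were the genes furthest above WT. *Tnfrsf1a*, which encodes TNFR1 (gene ID 21937, chr6:125349723-125362483 of mm10), had 549 normalized counts in del10 and 456 in ins2, against 128 in WT. Both knock-in libraries were high and near each other. The ratio to WT was 4.30-fold in del10 and 3.57-fold in ins2, at percentiles 95.6 and 94.5 of the 7073 genes. On reads the intervals were 3.52 to 5.31 and 2.91 to 4.42. The WT value came from 116 reads, about 1.90 fragments, and on fragments the interval was 1.06 to 35.5 in del10 and 0.833 to 29.7 in ins2, so only the del10 interval lay off 1. *Tnfrsf1b*, which encodes TNFR2 (gene ID 21938, chr4:145212368-145246870), had 709 normalized counts in del10 and 599 in ins2, against 276 in WT. It was 2.57-fold higher in del10 (2.22 to 2.98 on reads, 0.973 to 10.2 on fragments) and 2.17-fold higher in ins2 (1.87 to 2.52 and 0.784 to 8.75). The order of the 3 libraries was thus the same for both receptors, with del10 and ins2 apart by 1.20-fold for *Tnfrsf1a* and 1.18-fold for *Tnfrsf1b*. The read intervals of these ratios of del10 to ins2 (1.06 to 1.37 and 1.06 to 1.33) lay off 1, and the fragment intervals (0.692 to 2.19 and 0.732 to 1.98) took in 1. In bulk RNA, fewer cells of a type and less RNA per cell cannot be told apart. The LSK and the basophil and mast cell marker sums above were also lowest in WT. So were the sums for monocytes and macrophages, neutrophils and megakaryocytes. The part of cell make-up in these differences was not tested.

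TNFR2 took a smaller share of the receptor reads in both knock-in libraries. *Tnfrsf1b* took 56.4% of the reads of both receptor genes in del10, 56.8% in ins2 and 68.4% in WT. The read intervals of del10 (53.6% to 59.2%) and ins2 (53.7% to 59.8%) lay below that of WT (63.4% to 73.1%). On fragments the WT interval, 22.3% to 95.7%, took in both knock-in values. Among the 7073 genes, those with the pattern nearest to *Tnfrsf1a* over the 3 libraries, by Euclidean distance of centered log2 values, were *Xylt2* (distance 0.01), *Gnb4* (0.02) and *Gaa* (0.03), with 67 genes within 0.25. For *Tnfrsf1b* they were *Reep3* (0.01), *Etfb* (0.03) and *Ezh1* (0.03), with 227 genes within 0.25. With 3 points per gene, such likeness is common and is given as a description.

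Both TRAF adaptors were lower than in WT, but a different one was lowest in each knock-in library. *Traf2*, the adaptor and ubiquitin ligase that TNFR1 and TNFR2 recruit (gene ID 22030, chr2:25517982-25546894), had 321 normalized counts in del10 and 575 in ins2, against 839 in WT. It was 2.62-fold lower in del10 (2.29 to 2.99 on reads, 1.22 to 5.65 on fragments) and 1.46-fold lower in ins2 (1.31 to 1.63 and 0.717 to 3.01). *Traf6*, the ligase that serves the interleukin-1 and Toll-like receptors (gene ID 22034, chr2:101678440-101700974), had 1129 normalized counts in del10 and 782 in ins2, against 1790 in WT. It was 1.59-fold lower in del10 (1.47 to 1.71 on reads, 0.992 to 2.55 on fragments) and 2.29-fold lower in ins2 (2.1 to 2.49 and 1.35 to 3.88). The del10 and ins2 libraries stood in opposite order for the adaptors, with log2 ratios of del10 to ins2 of -0.84 for *Traf2* and 0.53 for *Traf6*, the lowest and the highest of the 10 genes. As a share of the reads of both, *Traf2* took 22.1% in del10 (14.3% to 32.6% on fragments), 42.3% in ins2 (30.3% to 55.2%) and 31.9% in WT (18.6% to 49.1%). These intervals overlap, while the intervals on reads do not.

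*Ikbkb* was within 2-fold of WT and its partner kinase lay on the other side. *Ikbkb* encodes IKK-beta, the kinase of the canonical arm (gene ID 16150, chr8:22659205-22706583). It had 1506 normalized counts in del10 and 1970 in ins2, against 1119 in WT, or 1.35-fold (1.24 to 1.46 on reads, 0.778 to 2.35 on fragments) and 1.76-fold (1.63 to 1.90 and 1.02 to 3.08) higher. *Chuk*, which encodes IKK-alpha, the kinase of the non-canonical arm, had 710 in del10 and 515 in ins2, against 1154 in WT. *Ikbkb* took 68.0% of the reads of both kinase genes in del10 (59.1% to 75.4% on fragments), 79.3% in ins2 (70.8% to 86.0%) and 49.2% in WT (32.4% to 67.6%). The ins2 and WT intervals do not overlap, and the del10 interval overlaps both. The share within a library does not depend on how the libraries are scaled.

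**Figure D2:**
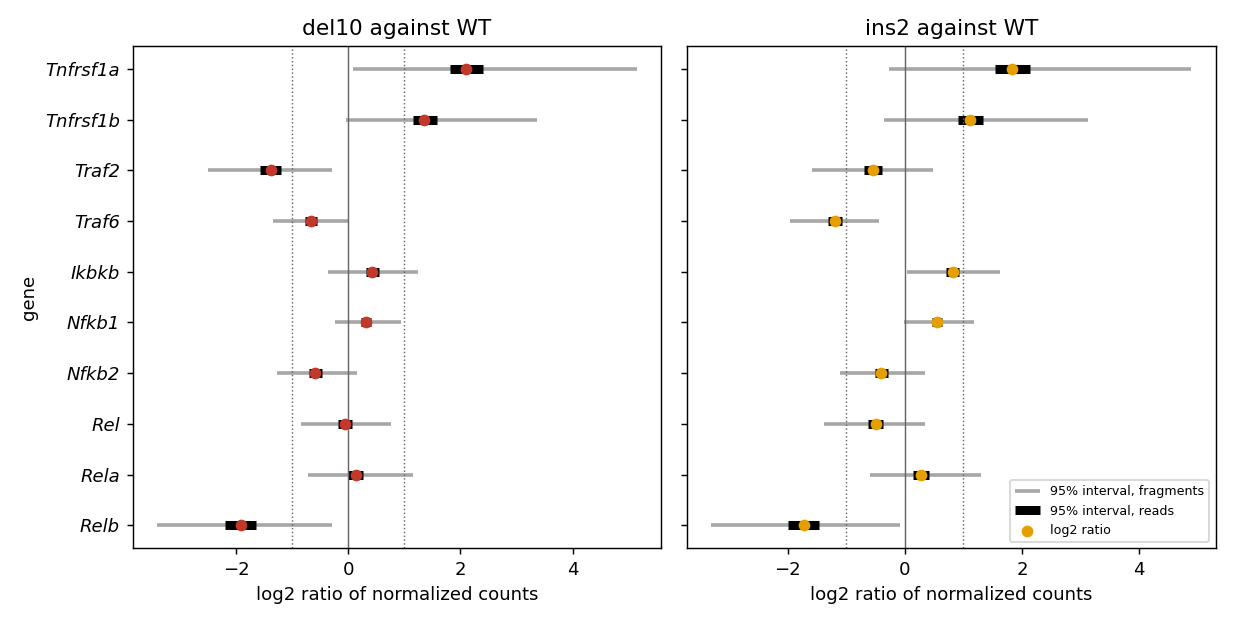
Log2 ratios to WT of the 10 genes in del10 (left) and ins2 (right), with 95% exact binomial intervals on reads (black) and on estimated fragments (gray). Dotted lines mark 2-fold. *Tnfrsf1a* and *Relb* lie at the ends in both panels, and 3 of 10 fragment intervals in each panel lie off a ratio of 1.

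Of the 5 subunit genes, *Relb* alone passed 2-fold against WT. *Relb* (gene ID 19698, chr7:19606222-19629438), the RelB subunit of the non-canonical arm, had 144 normalized counts in del10 and 163 in ins2, against 542 in WT. Both knock-in libraries were low and near each other. It was 3.77-fold lower in del10 (3.12 to 4.58 on reads, 1.23 to 10.7 on fragments) and 3.32-fold lower in ins2 (2.78 to 3.98 and 1.06 to 9.92), at percentiles 2.2 and 2.8 of the 7073 genes. The values rest on an estimated 8.81 fragments in del10, 7.90 in ins2 and 8.08 in WT. The B-lineage marker sum was likewise higher in WT. Of 13 such genes among the 7073, 12 were over 2-fold lower in each knock-in library. Over all 7073, 10.2% were lower in del10 and 10.7% in ins2. The part of B-lineage cells in the *Relb* difference was not tested. *Nfkb2* (gene ID 18034, chr19:46304737-46312090), whose product is cut to p52, the partner of RelB, had 1073 normalized counts in del10 and 1222 in ins2, against 1615 in WT. It was 1.5-fold lower in del10 (1.39 to 1.63 on reads, 0.897 to 2.42 on fragments) and 1.32-fold lower in ins2 (1.22 to 1.43 and 0.785 to 2.16).

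The canonical subunits lay closer to WT than *Relb*, though not all lay closer than *Nfkb2*. In ins2 the log2 ratios of *Nfkb1* (0.55) and *Rel* (-0.50) were larger in size than that of *Nfkb2* (-0.40). *Nfkb1* (gene ID 18033, chr3:135584655-135691547), the source of p50, had 2521 in del10 and 2969 in ins2, against 2027 in WT. It was 1.24-fold higher in del10 (1.17 to 1.32 on reads, 0.845 to 1.92 on fragments) and 1.46-fold higher in ins2 (1.38 to 1.55 and 0.993 to 2.27). *Rela* (gene ID 19697, chr19:5637490-5648130), the subunit p65 with a transactivation domain, had 981 normalized counts in del10 and 1084 in ins2, against 894 in WT. Its ratio was 1.10-fold in del10 (0.998 to 1.21 on reads) and 1.21-fold in ins2 (1.11 to 1.33), and both fragment intervals took in 1. *Rel* (gene ID 19696, chr11:23741729-23770970), which encodes c-Rel, prominent in lymphocytes, had 1135 in del10 and 835 in ins2, against 1179 in WT. Its log2 ratio was -0.05 in del10, with a read interval of -0.18 to 0.07, and -0.50 in ins2, with one of -0.63 to -0.37. *Rel* was thus at the WT level in del10 to within the counting error of reads, and lower in ins2 on reads only.

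The make-up of the family differed in its order. Levels were compared between genes as normalized counts per kilobase of the longest GENCODE vM21 transcript with a RefSeq ID and given as a share of the sum of the 5. *Nfkb1* held 40.0% in del10, 42.5% in ins2 and 28.3% in WT, and *Rela* held 23.6%, 23.5% and 18.9%. *Nfkb2* held 22.3%, 22.9% and 29.6%, and *Relb* held 4.24%, 4.36% and 14.1%. *Rel* held 9.92% in del10, 6.60% in ins2 and 9.08% in WT. In both knock-in libraries the order was *Nfkb1*, *Rela*, *Nfkb2*, *Rel* and *Relb*, and in WT it was *Nfkb2*, *Nfkb1*, *Rela*, *Relb* and *Rel*. Neighbors such as *Rela* and *Nfkb2* in the knock-in libraries, or *Nfkb2* and *Nfkb1* in WT, lay so close that their order is not firm.

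Pairs within a library showed the same shift on reads. *Relb* took 12.8% of the reads of *Relb* and *Rela* in del10 (6.14% to 23.3% on fragments), 13.1% in ins2 (5.94% to 24.6%) and 37.7% in WT (18.1% to 61.6%). *Nfkb2* took 29.9% of the reads of *Nfkb2* and *Nfkb1* in del10 (23.9% to 36.4%), 29.2% in ins2 (22.9% to 35.8%) and 44.3% in WT (30.9% to 58.6%). In both pairs the knock-in libraries were near each other and below WT. Their fragment intervals overlap that of WT, while the read intervals do not. *Rel* took 53.6% of the reads of *Rel* and *Rela* in del10 (44.9% to 62.6%), 43.5% in ins2 (33.2% to 54.2%) and 56.9% in WT (39.1% to 75.5%), with ins2 lowest and all fragment intervals overlapping.

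**Figure D3:**
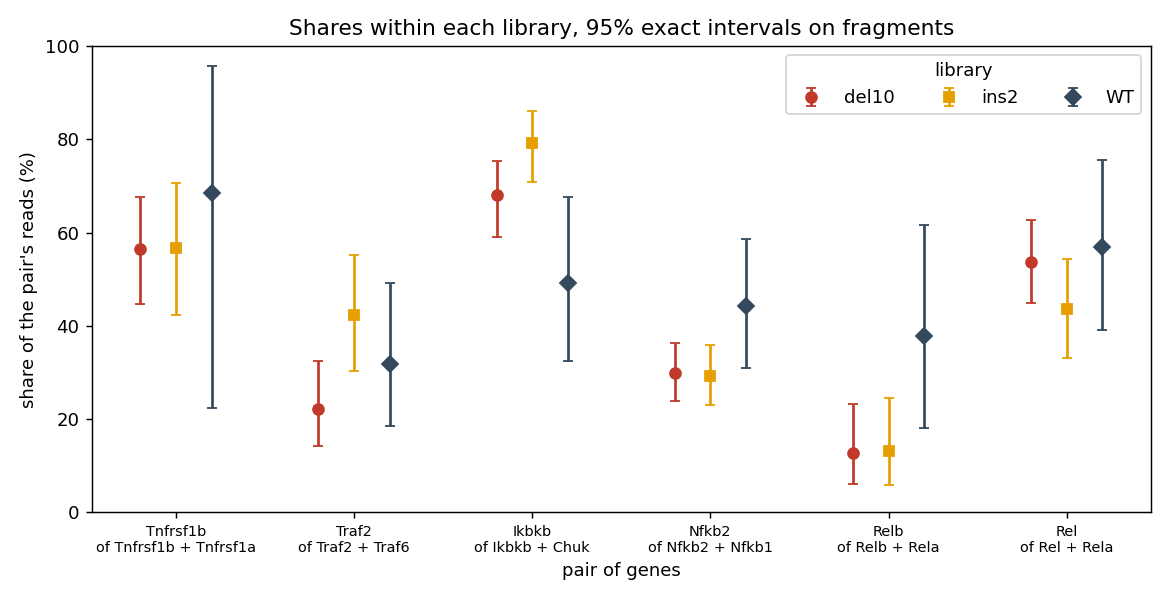
Share (%) of the first gene in the reads of a pair within each library (del10, ins2 and WT, 1 point each), with 95% exact binomial intervals on estimated fragments as bars. *Ikbkb* against *Chuk* is the only pair in which 1 knock-in interval (ins2) clears that of WT, and *Nfkb2* and *Relb* have higher shares in WT.

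Genes around these 10 were taken from 9 partly overlapping lists of 135 different genes, of which 74 were among the 7073. Over these 74, 24 were over 2-fold higher and 5 over 2-fold lower in del10 against WT, and 18 and 4 in ins2. Over the 7073 genes, 15.3% were higher and 10.2% lower in del10, and 15.7% and 10.7% in ins2, and the counts of the lists below stand beside these shares. Of the 74, 12 lay under the filter on low values in WT. Listed genes with few WT reads rest on few fragments, so their fragment intervals, printed for some genes only, are wide. The TNF family ligands were sparse. *Tnf* itself had 46.9 normalized counts in del10, 105 in ins2 and 150 in WT, under the filter and a little over 2 fragments in WT. Only 3 of 15 ligands were among the 7073, and *Fasl*, the ligand of the death receptor Fas, had 276, 558 and 121, over 2-fold higher in both. On fragments the *Fasl* interval was 0.490 to 18.4 in del10, taking in 1, and 1.05 to 36.1 in ins2. The death ligand *Tnfsf10* (TRAIL) had 425, 689 and 727, and *Ltb*, lymphotoxin beta, had 460, 753 and 720. Of the other TNF family receptors 4 of 18 were among the 7073, with 1 higher and 1 lower in del10 and 2 higher and none lower in ins2. *Tnfrsf21* (death receptor 6) had 828 normalized counts in del10 and 396 in ins2, against less than 1 in WT. *Tnfrsf13c*, the BAFF receptor of B cells, had 205 in del10, 404 in ins2 and 620 in WT, and *Cd27* had 394, 742 and 201.

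Most adaptors and ligases of the receptor complex lay within 2-fold. Of 15 among the 7073, 1 was higher and 1 lower in del10 (median log2 ratio -0.48), and 2 were higher and 2 lower in ins2 (median -0.21). *Tab1*, a regulatory partner of the kinase TAK1, had 261 normalized counts in del10 and 476 in ins2, against 93.5 in WT. On fragments the *Tab1* interval was 0.604 to 163 in del10, taking in 1, and 1.15 to 292 in ins2. *Map3k7*, which encodes TAK1 itself, had 893 in del10 and 604 in ins2, against 1461 in WT. *Rnf31*, the catalytic part of the linear ubiquitin ligase, had 489, 726 and 986, and *Traf1* had 215, 518 and 132. *Ube2v1*, part of a ubiquitin-conjugating enzyme pair, had 1395, 704 and 724. In the death arm, which leads from TNFR1 to cell death, 3 of 6 were higher in del10 (15.3% of the 7073) and none in ins2 (15.7%), with medians of 0.79 and 0.23. A list of 6 genes is too short to read either count against these shares. *Ripk3*, the necroptosis kinase, had 475 normalized counts in del10 and 273 in ins2, against 201 in WT, and the adaptor *Fadd* had 374, 190 and 161.

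On the route from interleukin-1 and Toll-like receptors to TRAF6, the kinases *Irak4* and *Irak1* lay above WT and the adaptor *Tifa* below it. Of 11 among the 7073, 3 were higher and 2 lower in del10, and 1 higher and 1 lower in ins2 (medians -0.34 and 0.06). *Irak4*, the first kinase of the route, had 471 normalized counts in del10 and 558 in ins2, against 143 in WT, and *Irak1*, the kinase it activates, had 1551 and 1109, against 571. On fragments the *Irak4* ratio was 0.891 to 30.5 in del10, taking in 1, and 1.05 to 36.1 in ins2. That of *Irak1* was 1.30 to 5.78 in del10 and 0.905 to 4.26 in ins2, the latter taking in 1. *Tifa*, an adaptor that binds TRAF6, had 1831 in del10 and 1514 in ins2, against 4827 in WT, so it was low in both, with log2 ratios of -1.40 and -1.67. Its ratios were 0.379 (0.279 to 0.516 on fragments) and 0.314 (0.222 to 0.439). Among 8 other IKK and upstream kinase genes, 1 was higher in each comparison and 1 lower in ins2 (*Chuk*), with medians of -0.17 and 0.35. The higher one, *Nlk*, encodes Nemo-like kinase, which is not part of the IKK complex, and had 562 in del10 and 501 in ins2, against 212 in WT. *Map3k3* had 1013, 812 and 585, and *Tbk1*, an IKK-related kinase, had 882, 919 and 1276.

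In the lists of IkappaB genes and brakes, *Nfkbiz*, *Tnfaip3* and *Zfp36* were over 2-fold higher in del10 and above WT by less than 2-fold in ins2. *Nfkbia* had 6063 normalized counts in del10 and 4695 in ins2, against 3866 in WT, or 1.57-fold (1.18 to 2.09 on fragments) and 1.21-fold (0.9 to 1.64). *Nfkbiz*, an atypical nuclear IkappaB, had 11318 in del10 and 7422 in ins2, against 5436 in WT, and was the only one of 4 IkappaB genes past 2-fold, in del10, where scaling by library totals left 0 of 4 past it. *Nfkbie* had 1269, 964 and 1582, and *Nfkbid* had 1041, 601 and 855. The medians of these 4 were 0.47 in del10 and -0.11 in ins2. Of 8 genes in the list of ubiquitin editing brakes, 3 were higher in del10 (15.3% of the 7073) and 1 in ins2 (15.7%), and none was lower (10.2% and 10.7%), with medians of 0.42 and 0.51. *Tnfaip3* had 28014 normalized counts in del10 and 18701 in ins2, against 12226 in WT, or 2.29-fold (1.97 to 2.69 on fragments) and 1.53-fold (1.31 to 1.81). *Zfp36*, whose product tristetraprolin degrades messenger RNA rather than editing ubiquitin, had 12272 in del10 and 8242 in ins2, against 5156 in WT. *Fam105b*, the linear deubiquitinase OTULIN, had 620, 636 and 287. For *Nfkbiz*, *Tnfaip3* and *Zfp36* the order of the libraries was del10, ins2 and then WT.

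**Figure D4:**
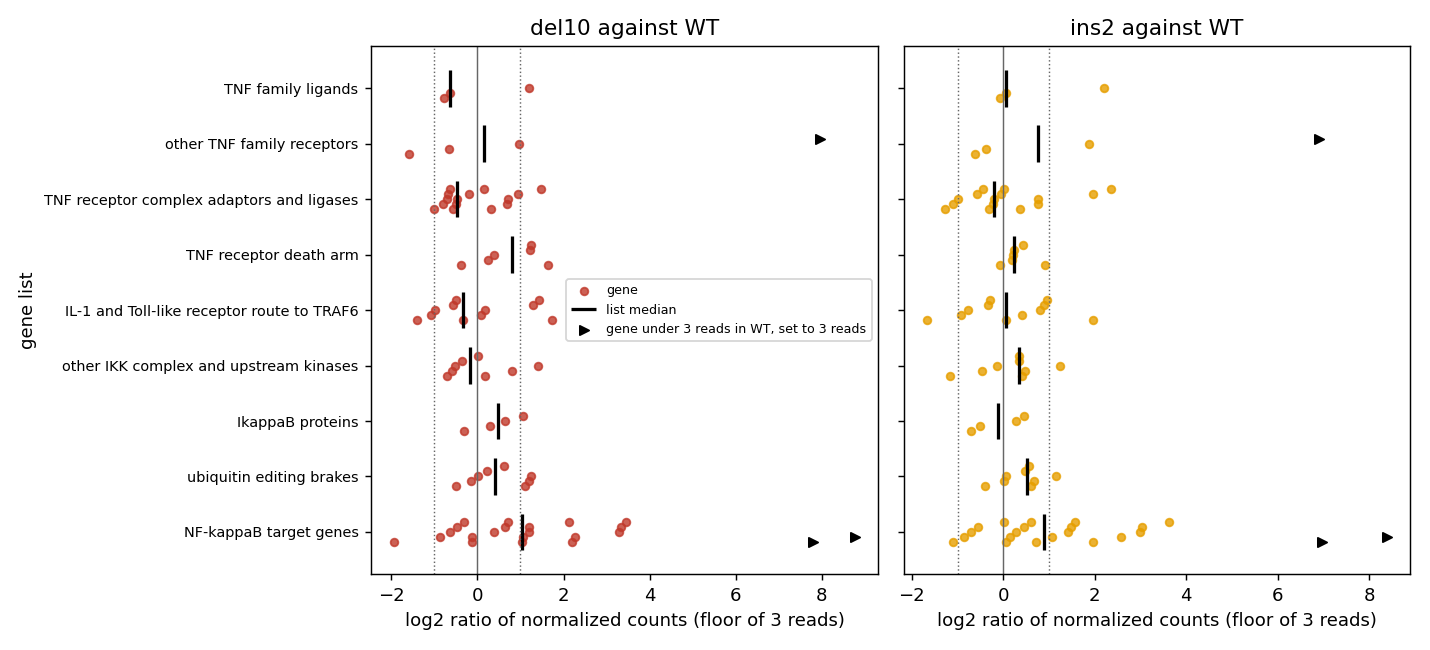
Log2 ratios to WT in del10 (left) and ins2 (right) of the listed genes among the 7073, 1 point per gene, with the list median as a bar, dotted lines at 2-fold, and triangles for genes with under 3 reads in WT set to 3 reads. The NF-kappaB target genes have the highest median in both panels, at 1.04 and 0.89.

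Among 22 of 41 NF-kappaB target genes with counts high enough, 12 were over 2-fold higher and 1 lower in del10, and 11 were higher and 1 lower in ins2. This list is not separate from those above, where *Tnfaip3*, *Nfkbiz*, *Nfkbia*, *Nfkbie*, *Traf1*, *Birc3* and *Ltb* were also counted. *Tnfaip3* and *Nfkbiz* are among the 12 higher in del10. Over the 7073 genes, 15.3% were higher and 10.2% lower in del10, and 15.7% and 10.7% in ins2. Their median log2 ratios were 1.04 and 0.89, beside 0.04 in both over the 7073 genes. Of the 22, 4 lay under the filter in WT and 2 were at 0 there, so the filter favors genes high in the knock-in libraries. Setting the 2 genes at 0 to 3 reads cannot move the medians, since both genes stay above them. *Ptgs2* (cyclooxygenase-2) had 1441 normalized counts in del10 and 1116 in ins2 and was listed at 0 in WT, as was *Il6*, with 731 and 413. On fragments the intervals of the *Ptgs2* ratio start at 5.68 in del10 and 4.36 in ins2, and no fold is given for either gene. *Ccnd1* (cyclin D1) had 636 in del10 and 714 in ins2, against 58.3 in WT, under 1 fragment. *Vcam1*, an adhesion molecule also made by stromal cells, was the lower one in del10, with 66.2, while ins2 had 533 and WT 253. *Birc3*, which encodes cIAP2, was the lower one in ins2, with 719, while del10 had 1103 and WT 1538. Many of these genes are also made by basophils, mast cells and other myeloid cells. The basophil and mast cell sum was lowest in WT, as were the monocyte and macrophage sum and the neutrophil sum. The part of these cells in the list's median was not tested.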

How the data were processed

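RNA was taken from LSK cells of 3 genotypes, 1 library each, from 5 ng of total RNA with ribosomal RNA depletion and a strand-specific kit, and sequenced from one end over 75 bp. Tools listed in the submitters' processing notes were Bowtie2 2.2.3, TopHat2 2.1.1, Trimmomatic 0.32 and bcl2fastq 2.20, and the genome build was mm10. Removal of duplicates and the use of strand in counting are not given in the sources used here. The authors deposited for each gene an estimated count and a log2 value scaled by the trimmed mean of M-values (TMM), with values under 1 listed as 0. The factors were recovered as 1.02 (del10), 0.984 (ins2) and 1.10 (WT), which gave the deposited log2 values to within 1.39e-06.

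Normalized counts are estimated counts times these factors. Ratios used a pseudocount of 1 and the 7073 of 14145 genes with reads whose mean reached 215.3. Estimated counts were rounded to whole numbers for intervals at 95% (Clopper-Pearson). Fragments are reads divided by the commonest count between 5 and 150 reads, smoothed over 5 counts on each side, and are approximate. The log2 ratios of del10 to WT, their read intervals and the fragment size from the commonest count were tested on simulated data. The reads simulated for the intervals did not come in fragments, unlike those of the data. The other steps were not tested in this way. Alternatives were other scalings, pseudocounts and filters, and, added after seeing the data, other fragment sizes and a floor of 3 reads.

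The 10 genes, the lists and the rules were chosen with earlier results of these data known. Named are the 10 genes, the 3 of each list with the largest absolute log2 ratio in each comparison, and the partners *Nfkbia*, *Tnfaip3*, *Tnf* and *Chuk*. *Vcam1*, *Birc3* and the genes of low counts in the closing section are not named by this rule and were picked once their values had been seen. The WT samples, like the others, are a single library, so groups were compared by counting error alone. Some genes under this rule are not reported here. No gene that overlaps one of the 10 had reads. Promoter windows came from the RefSeq table for GRCm38.p6, where *Ikbkb*, *Nfkb1* and *Relb* had no entry. Transcript lengths came separately from GENCODE vM21 transcripts that carry a RefSeq ID. Python 3.11.15, NumPy 2.4.6, pandas 2.3.3, SciPy 1.17.1 and matplotlib 3.10.9 were used.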

Additional observations from a re-analysis of the deposited data

Results flagged for a closer look

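For 4 gene lists the median log2 ratio to WT had opposite signs in del10 and ins2, and in each case the difference between the knock-in libraries was not tested, since there is 1 library per genotype. It was -0.64 in del10 and 0.065 in ins2 for the 3 TNF family ligands, and -0.34 and 0.061 for the 11 genes on the route from interleukin-1 and Toll-like receptors to TRAF6. It was -0.17 in del10 and 0.35 in ins2 for the 8 other IKK and upstream kinase genes, and 0.47 and -0.11 for the 4 IkappaB genes.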

How the results depend on the processing

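No paired analysis was possible because each genotype has 1 library, and for the same reason no library could be left out. Across other scalings, pseudocounts, filters and the deposited log2 values, each of the 10 genes kept its sign against WT and its side of 2-fold wherever it stayed in the set. *Tnfrsf1a* ranged over 2.02 to 2.1 (log2) in del10 and 1.76 to 1.84 in ins2, and *Relb* over -1.98 to -1.85 and -1.75 to -1.67. The median of the 10 genes in del10, 0.04, changed sign to -0.03 with library totals.

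When an average of 500 normalized counts was required, *Tnfrsf1a* and *Relb* were left out, and 2 genes in del10 and 2 in ins2 passed 2-fold, against 4 and 4, because fewer genes were kept. With that filter the pathway lists gave 17 of 52 genes past 2-fold in del10 and 12 in ins2, against 29 and 22 of 74. Without a filter they gave 75 of 129 in del10 (54 higher, 21 lower) and 59 in ins2 (43 higher, 16 lower). The share past 2-fold was thus larger where genes of low counts were kept, but this held for all genes too. Of the 14145 genes without a filter, 30.2% were over 2-fold higher and 15.5% lower in del10, and 28.7% and 15.7% in ins2. With the main filter these shares were 15.3%, 10.2%, 15.7% and 10.7%. They were lower again at an average of 500. The change with the filter is therefore not particular to the lists. With library totals 0 of 4 IkappaB genes passed 2-fold in del10, against 1 (*Nfkbiz*), and with a pseudocount of 10 none of the 15 adaptors and ligases was over 2-fold lower in del10, against 1 (*Rnf31*). With fragments sized from the share of genes at 0 (32.4 reads in del10, 36.6 in ins2 and 83.2 in WT), the interval lay off 1 for 0 of the 10 genes in del10 and 1 in ins2 (*Traf6*), against 3 and 3, since larger fragments mean fewer of them. Of the 10 genes, 8 in del10 and 10 in ins2 had read intervals off 1. Depth in fragments of the WT library thus limits every ratio to WT, and none of the fragment intervals lay beyond 2-fold.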

Other observations

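Some genes of the pathway had too few counts for the comparisons. *Bcl3*, an IkappaB-like partner of p50 and p52, had 142 normalized counts in del10 and 126 in ins2 and was listed at 0 in WT. *Nfkbib*, which encodes IkappaB-beta, had 112 in del10, 137 in ins2 and 165 in WT. *Tnfsf13b*, which encodes BAFF, was listed at 0 in del10 and ins2 and had 68.2 in WT. *Tnfsf14* (LIGHT) had 219 in del10, 130 in ins2 and 101 in WT. All 4 stand for few fragments in WT, and no fold is given.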
